A study of Mus musculus with 42 samples.

Results

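GABA-B receptors and the GIRK potassium channels they open were followed through postnatal development in mouse Purkinje cells, which carry the only output of the cerebellar cortex, and in Stellate/Basket cells, inhibitory interneurons that contact them. The 8 genes were chosen by name: the receptor subunit genes Gabbr1 and Gabbr2, the auxiliary subunit genes Kctd8, Kctd12 and Kctd16, and the channel subunit genes Kcnj3 (GIRK1), Kcnj6 (GIRK2) and Kcnj9 (GIRK3). All probe sets that the array annotation assigns to these symbols were taken, 21 of the 45101 on the array: 4 each for Gabbr1, Kcnj3 and Kcnj9, 5 for Kcnj6, 2 for Kctd8, and 1 each for Kctd16 and Kctd12. The Kctd12 probe set is assigned also to Mir5130, a microRNA gene inside the Kctd12 locus, so its values cannot be given to Kctd12 alone. Gabbr2 has no probe set in the annotation used and was not analysed here. The other 6 members have probe sets of their own and all 6 passed the filter on low values. They are 6 of the 17478 genes tested and of the 18194 genes with such a probe set.

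Cells came from the cerebellum of Gad67-GFP bac transgenic mice of the CB6-Tg(Gad1-EGFP)G42Zjh/J strain, all labelled male, in which the Gad1 transgene marks inhibitory neurons with green fluorescent protein. Since the transgene is shared by both cell types, the hand sort told them apart by soma size, after slices had been digested with protease in AP5, CNQX and TTX, which block glutamate receptors and sodium channels. Of the 40 arrays used, 25 were of Purkinje cells: 3 for each of postnatal days 3, 7 and 14 (P3, P7, P14) and 4 for each of P21, P28, P35 and P56. The other 15 were of Stellate/Basket cells, with 4 arrays for P14, 3 for P21, 4 for P28 and 2 each for P35 and P56. The labels call the replicates biological.

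GABA-B receptors are metabotropic receptors for the transmitter GABA, built from a GABBR1 subunit that binds GABA and a GABBR2 subunit that couples to Gi/o proteins. KCTD8, KCTD12 and KCTD16 bind the receptor from inside the cell and set how fast its response starts and fades. The released G protein beta and gamma subunits open GIRK channels, tetramers of Kir3 subunits, which hyperpolarise the cell, while they also dampen voltage-gated calcium channels and the alpha subunit dampens adenylyl cyclase. In the cerebellar cortex, GABA-B receptors are known from Purkinje cell dendrites, where they sit near the parallel fibre inputs and act on mGluR1 signalling.

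Values are deposited log2 expression, and a probe set's level is not comparable with that of another probe set. The 40 arrays had medians from 5.91 to 6.16, and values ran from 3.94 to 14.6. The mean of 10 Purkinje cell markers was 8.26 ± 1.19 (SD, n = 3) in Purkinje arrays at P3 and 9.89 ± 0.66 (SD, n = 3) at P7, against 12.64 to 12.89 at later ages. The mean of 7 molecular layer interneuron markers was 9.57 and 9.54 in the same P3 and P7 arrays, against 5.67 to 5.79 later, and that of 7 Golgi and unipolar brush cell markers was 8.34 at both ages, against 6.21 to 6.48. In Stellate/Basket arrays the Purkinje markers went from 9.05 at P14 to 10.35 at P35 and 11.75 ± 1.04 (SD, n = 2) at P56, and the interneuron markers from 10.35 to 9.27 and 5.97. The mean of 11 astrocyte and Bergmann glia markers was 7.41 in Stellate/Basket arrays at P14 and 9.58 to 10.75 at later ages, against 6.72 to 7.50 in Purkinje arrays from P14 on. Thus the P3 and P7 Purkinje arrays and the P56 Stellate/Basket arrays did not carry the marker pattern of their labels. Values without the P56 or P3 arrays are given for the members and for the genes around them. The Stellate/Basket arrays of P21, P28 and P35 held interneuron markers at 9.83, 9.74 and 9.27. Beside these, their Purkinje markers were at 9.91, 10.57 and 10.35 and their glia markers at 9.58, 10.43 and 9.74. Values without P56 still include these mixed arrays. Although all animals are labelled male, the female-specific RNA Xist was at 10.7 or above in 27 of the 40 arrays, 13 of 25 Purkinje and 14 of 15 Stellate/Basket, and at most 7.68 in the others. At P14 it was low in all 3 Purkinje arrays and high in all 4 Stellate/Basket arrays, so that at this age the cell type and what moves with Xist cannot be told apart.

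The promoter windows of Gabbr1, Kctd12 and Kctd8 are shown, chosen after their values were seen, because these were the members whose probe sets changed in Purkinje arrays from P7 to P14. The windows are the 250 bases before the RefSeq gene start in GRCm38.p6, at chr17:37045716-37045965 on the plus strand for Gabbr1, chr14:102982638-102982887 on the minus strand for Kctd12, and chr5:69341710-69341959 on the minus strand for Kctd8. They read 5′ to 3′ along the gene, with matches to a GC box or a cAMP response element in capitals.
Gabbr1: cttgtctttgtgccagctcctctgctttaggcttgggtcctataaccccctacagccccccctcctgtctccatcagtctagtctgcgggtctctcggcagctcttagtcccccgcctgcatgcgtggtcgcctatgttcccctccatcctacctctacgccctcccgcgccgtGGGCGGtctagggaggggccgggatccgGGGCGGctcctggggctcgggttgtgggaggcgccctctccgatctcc
Kctd12: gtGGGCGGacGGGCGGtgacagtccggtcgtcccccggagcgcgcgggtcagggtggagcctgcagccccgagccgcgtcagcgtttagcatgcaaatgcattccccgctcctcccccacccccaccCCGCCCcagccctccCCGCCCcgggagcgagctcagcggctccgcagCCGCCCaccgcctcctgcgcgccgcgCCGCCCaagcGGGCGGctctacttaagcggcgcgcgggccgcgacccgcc
Kctd8: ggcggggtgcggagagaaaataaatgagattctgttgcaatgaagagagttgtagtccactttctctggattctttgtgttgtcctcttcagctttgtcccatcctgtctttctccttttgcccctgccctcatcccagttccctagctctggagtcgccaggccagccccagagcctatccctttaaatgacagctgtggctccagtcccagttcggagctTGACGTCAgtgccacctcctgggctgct
The GC box was searched as GGGCGG and the cAMP response element as TGACGTCA, on both strands, so that CCGCCC marks a GC box on the other strand. Gabbr1 held 2 GC boxes, 48 and 76 bases before the start, and Kctd12 held 7, while 32.7% of the 32851 windows of this length in the table held at least 1. Kctd8 held no GC box and 1 cAMP response element, 28 bases before the start, a motif in 1.55% of the windows. An E-box (CACGTG, in 6.02% of windows) and a nuclear receptor half-site (AGGTCA, in 14.0%) matched none of the 3. No match overlapped another. In all, 7 of the 8 members matched a window in the table, all but Kctd16. A match is a description of these letters and not a binding site.

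Each comparison was tested by limma across the 17478 genes, and a difference counted as called at an adjusted p under 0.05 and a size of at least 1 log2 unit. Averaged over the 5 shared ages, 1 of the 6 members tested differed between the cell types, Gabbr1, where 11.5% of all genes were called. The median difference of the 6 was -0.04, and that of all genes was 0.02. By age, 2 members were called at P14, Gabbr1 higher and Kctd8 lower (all genes 13.3%), 2 at P21, Gabbr1 and Kcnj3 (13.5%), and 1 at P28, Gabbr1 (16.5%). At P35 the 2 called were again Gabbr1 and Kcnj3 (11.4%), and at P56 it was Kcnj3 alone (20.6%). An F test over the 7 Purkinje ages called 5 of 6, against 56.3% of genes, and over the Purkinje ages from P14 on it called 2 of 6, Kcnj3 and Kctd16, against 28.5%. Over the 5 Stellate/Basket ages it called 4 of 6, against 40.5%. Kcnj6 was called by none of these F tests. With 6 members, these counts are too few to say whether they lie near or above the shares of all genes. They leave out the Kctd12/Mir5130 probe set, which was tested apart. The members are described below by their own values.

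**Figure D1:**
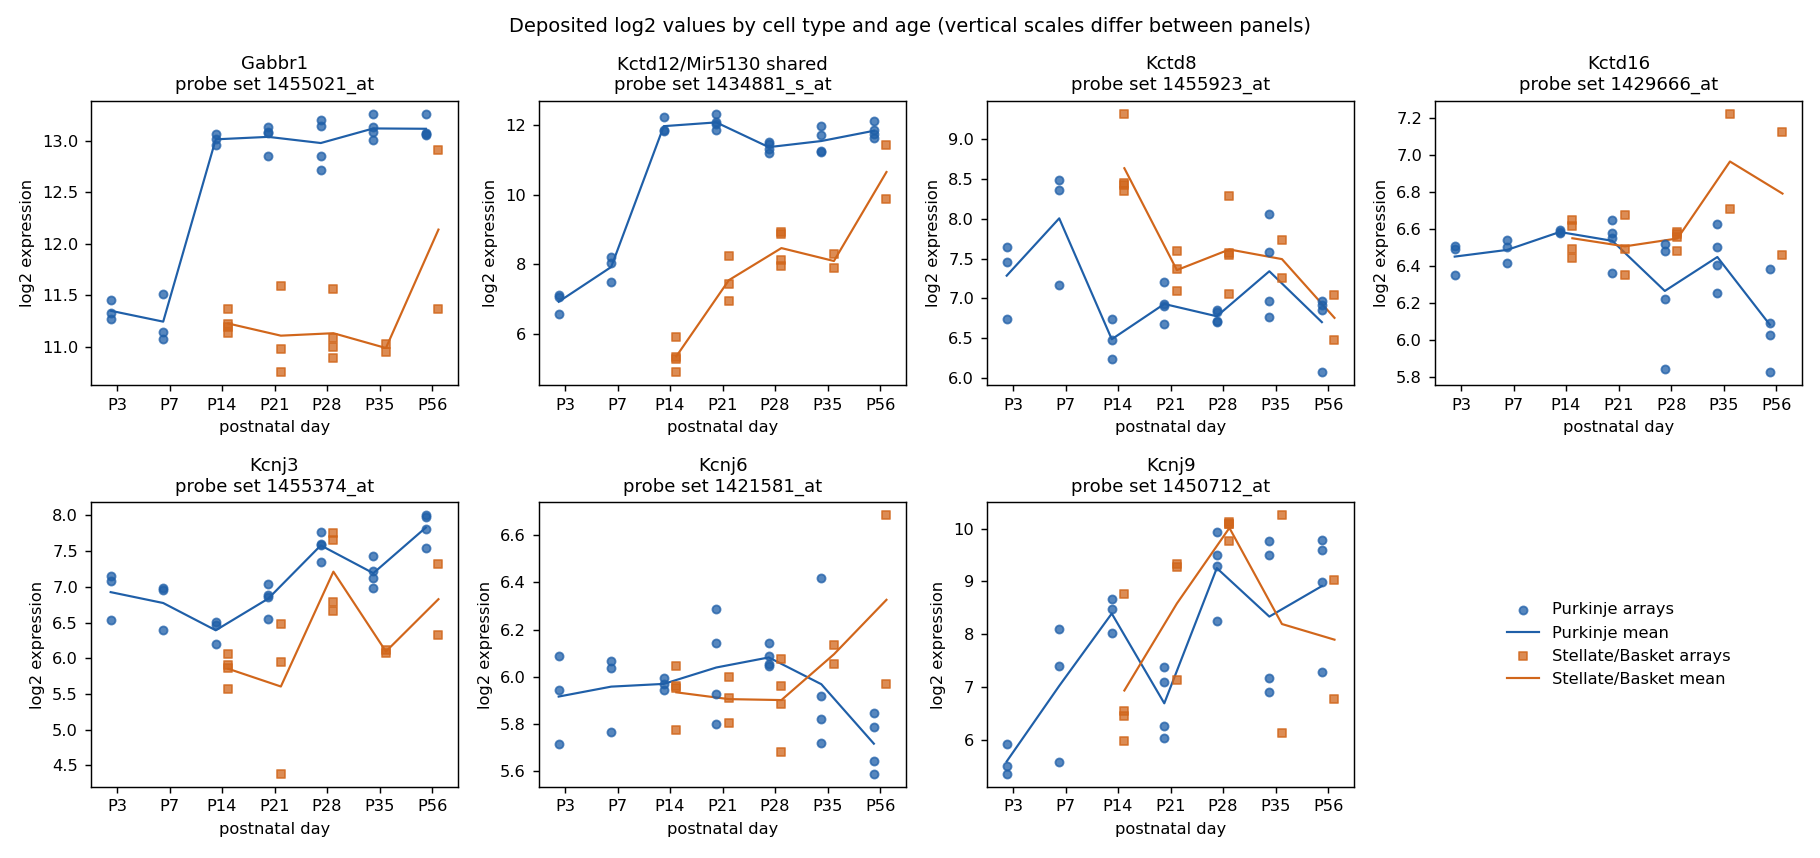
Deposited log2 expression (vertical axes, which differ between panels) of the probe set that represents each measured member at each postnatal day, with 1 point per array and a line through the group means, Purkinje in blue and Stellate/Basket in orange. Gabbr1 and the Kctd12/Mir5130 probe set step up in Purkinje arrays between P7 and P14 and lie above the Stellate/Basket arrays at all 5 shared ages, Kctd8 is highest in Stellate/Basket arrays at P14, and Kcnj9 spreads widely within groups.

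Gabbr1, the GABA-binding subunit of the receptor, was higher in Purkinje than in Stellate/Basket arrays by a log2 difference of 1.74 ± 0.10 (SE) averaged over the shared ages, a 3.33-fold difference (adjusted p = 5.73e-16). On the probe set that represents it (1455021_at), the Purkinje arrays read 13.07, 12.96 and 13.02 at P14, 12.86, 13.09, 13.14 and 13.08 at P21, and 12.86, 12.72, 13.14 and 13.20 at P28. They read 13.01, 13.13, 13.26 and 13.09 at P35 and 13.06, 13.07, 13.08 and 13.26 at P56. All 19 lay between 12.72 and 13.26, a narrow band with no called change from P14 to P56 (0.10 ± 0.21; 95% confidence interval -0.33 to 0.53; adjusted p = 0.801). The Stellate/Basket arrays read 11.37, 11.13, 11.22 and 11.19 at P14, 10.76, 10.98 and 11.59 at P21, and 11.56, 10.89, 10.999 and 11.09 at P28. They read 10.95 and 11.03 at P35 and 12.91 and 11.37 at P56. The cell types did not overlap at any of the 5 ages, although the first P56 Stellate/Basket array stood within the Purkinje band. The share of all genes without such overlap is not given, here or for the members below. The differences were 1.79 ± 0.21 at P14, 1.93 ± 0.21 for P21, 1.85 ± 0.20 for P28 and 2.13 ± 0.24 for P35, all called, and 0.98 ± 0.24 at P56, just under the fold minimum (adjusted p = 0.00149). The P56 value turns on the Stellate/Basket pair: it was 1.75 and called (adjusted p = 1.60e-07) without the first replicate and 0.21 (adjusted p = 0.570) without the third. Averaged over P14 to P35, without the P56 arrays, the difference was 1.92 (adjusted p = 4.11e-16). In bulk samples fewer cells of a type and less RNA per cell cannot be told apart.

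In Purkinje arrays Gabbr1 rose between P7 and P14 by 1.77 ± 0.23 (SE), 3.41-fold (adjusted p = 2.71e-07), and from P3 to P56 by the same 1.77 (± 0.21; adjusted p = 4.91e-08). The P3 arrays read 11.45, 11.27 and 11.33 and the P7 arrays 11.08, 11.15 and 11.51, at the level of the Stellate/Basket arrays from P14 to P35. From P7 to P14, 2 of the 6 members were called, Gabbr1 higher and Kctd8 lower, against 12.7% of all genes. From P3 to P56, 2 were called, Gabbr1 and Kcnj9, both higher, against 16.5%. Over the P7 to P14 step 8 of 10 Purkinje markers were called higher, and 7 of 7 interneuron and 5 of 7 Golgi and unipolar brush cell markers lower, and their part in the rise of Gabbr1 was not tested. In the order of the 12 groups, the 5 Purkinje groups from P14 on came first, with neighbours at most 0.08 apart (adjusted p of at least 0.828). Stellate/Basket P56 followed at 12.14, 0.84 below Purkinje P28 (adjusted p = 0.00799) and 0.79 above Purkinje P3 (adjusted p = 0.0145). The other 6 groups, from 11.35 down to 10.99, were not separated between neighbours (adjusted p of at least 0.823). Here and for the members below, the order was set by the same means that were then compared. The adjusted p values between neighbours are therefore a description.

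In Stellate/Basket arrays Gabbr1 was the member called from P35 to P56, higher by 1.15 ± 0.28 (SE; adjusted p = 0.00333), a step in which 11.6% of all genes were called. The rise rested on the first P56 array: without it the difference was 0.38 (adjusted p = 0.264). That array's Purkinje marker mean was 12.49, within reach of the Purkinje arrays, and that of the other P56 array was 11.02. Over the same step 6 of 7 interneuron markers were called lower, 4 of 10 Purkinje and 3 of 11 astrocyte and Bergmann glia markers higher, and their part in it was not tested. The call was also lost with array weights (adjusted p = 0.136) and when only the compared groups were fitted (adjusted p = 0.556). The latter fit held only 2 arrays of each age.

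**Figure D2:**
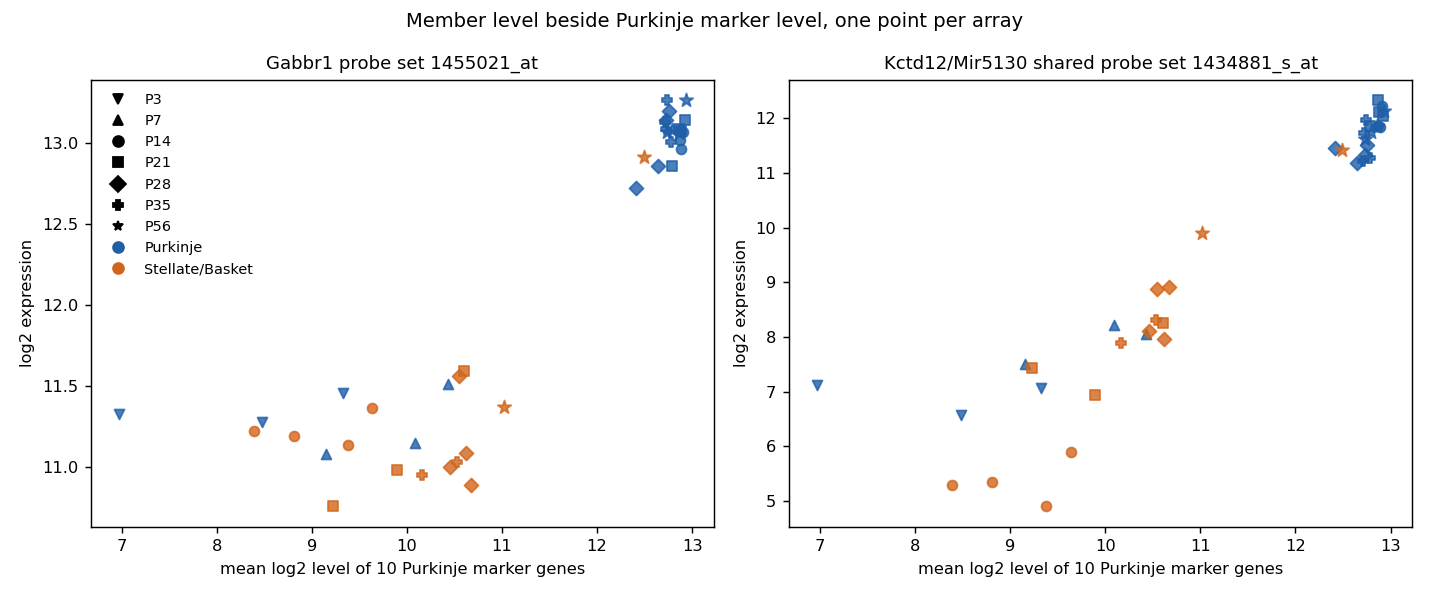
Log2 expression (vertical axis) of Gabbr1 and of the Kctd12/Mir5130 probe set against the mean log2 level of 10 Purkinje marker genes (horizontal axis), with 1 point per array, colour for cell type and symbol shape for age. The Purkinje arrays from P14 on sit at the top right, the P3 and P7 Purkinje arrays lie low with most Stellate/Basket arrays, and 1 Stellate/Basket P56 array, at a marker mean of 12.49, sits with the Purkinje arrays.

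The 4 Gabbr1 probe sets did not move together. Each probe set with 1 symbol was also tested by itself, 32918 in all, of which 10.3% were called in the averaged cell type difference, 15.2% in Purkinje P3 to P56 and 11.2% in Purkinje P7 to P14. Probe set 1422051_a_at went the same way as the main one, by 1.45 ± 0.14 (SE; adjusted p = 1.66e-10) between the cell types, 1.87 ± 0.30 from P3 to P56 and 1.47 ± 0.32 from P7 to P14. Probe set 1425595_at rose from P3 to P56 by 1.19 ± 0.24 (adjusted p = 0.000174), with 0.67 ± 0.11 between the cell types, under the fold minimum.

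Probe set 1437188_at went the opposite way. Its Purkinje arrays read 9.33, 8.94 and 9.44 at P3, 8.87, 9.43 and 9.32 at P7 and 7.99, 7.77 and 7.90 at P14, and by P56 they read 6.92, 6.78, 7.37 and 7.32. It fell by 1.32 on the log2 scale from P7 to P14 (SE 0.30; adjusted p = 0.00122) and by 2.14 from P3 to P56 (SE 0.28; adjusted p = 2.80e-07). The Stellate/Basket arrays read 9.33, 9.32, 9.49 and 9.62 at P14, 9.46 and 10.36 at P35 and 8.94 and 8.13 at P56, above the Purkinje arrays of the same age without overlap at all 5 ages. Averaged, Purkinje arrays were lower by a log2 difference of -2.04 ± 0.13 (adjusted p = 1.20e-14), from -1.43 at P56 to -2.69 at P35. Which Gabbr1 transcripts each probe set reads is not given in the sources used here. The mean of the 4 probe sets, in which the opposite changes offset each other, differed by 0.45 ± 0.06 between the cell types, by 0.65 from P7 to P14 and by 0.67 from P3 to P56, all below the fold minimum.

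**Figure D3:**
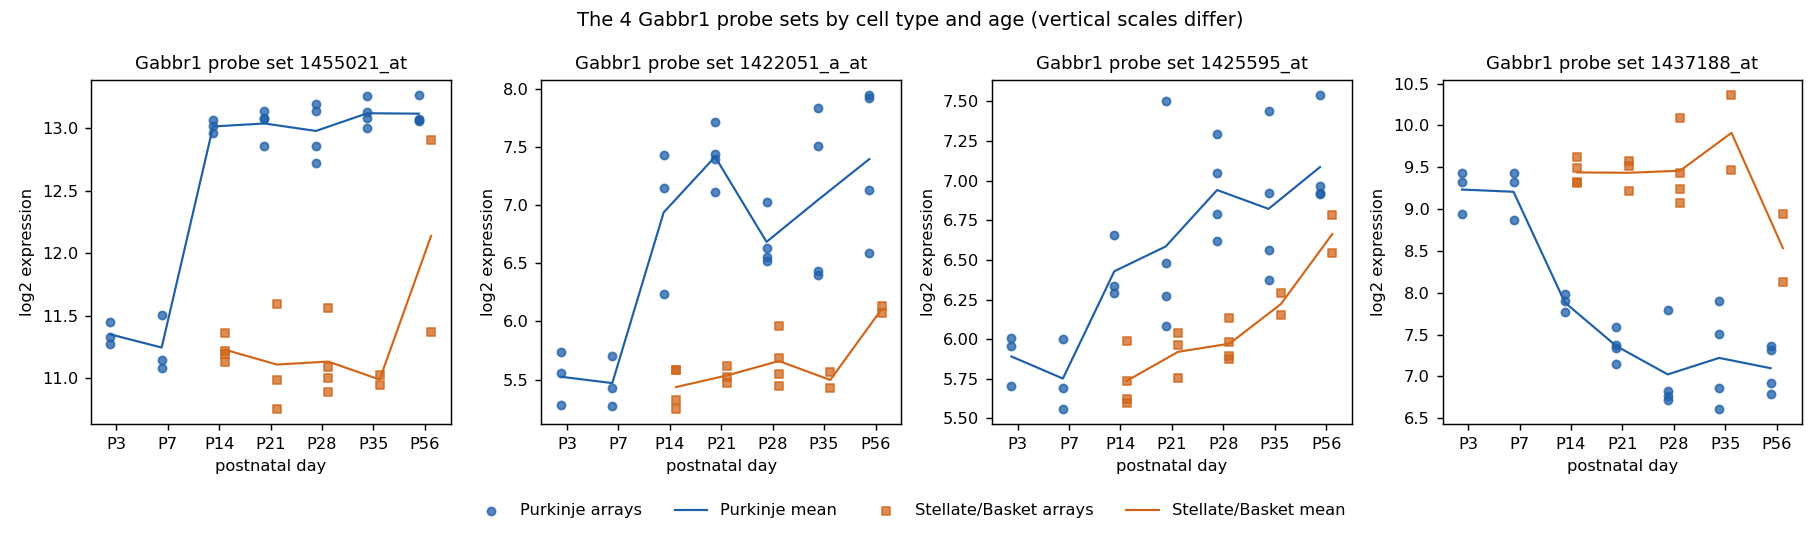
Log2 expression (vertical axes, which differ between panels) of the 4 Gabbr1 probe sets by postnatal day, with 1 point per array and lines through group means, Purkinje in blue and Stellate/Basket in orange. Probe sets 1455021_at, 1422051_a_at and 1425595_at are higher in Purkinje arrays from P14 on, and 1437188_at is lower there, with a mean of 7.10 against 8.53 at P56.

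The widest change of any member's probe set was that of the shared Kctd12/Mir5130 probe set (1434881_s_at). KCTD12 is the auxiliary subunit that makes receptor currents fade during a lasting stimulus. The Purkinje arrays read 7.07, 6.57 and 7.13 at P3, 7.50, 8.22 and 8.05 at P7 and 12.23, 11.83 and 11.87 at P14. From P14 to P56 all 19 Purkinje arrays lay between 11.19 and 12.33. The step from P7 to P14 was 4.05 ± 0.32 (SE), 16.6-fold (adjusted p = 1.80e-11), and that from P3 to P56 4.92 ± 0.30, 30.3-fold (adjusted p = 2.45e-14). Since probe sets with several symbols had to be added for this test, the adjustment is over 33759 probe sets, of which 11.4% were called in the first and 15.3% in the second of these comparisons. The P3 to P7 difference of 1.0 ± 0.32 was not called (adjusted p = 0.593), and nor was any Purkinje step after P14. The P7 to P14 step goes with the marker changes given above for Gabbr1, whose part in it was not tested.

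In Stellate/Basket arrays the probe set read 5.90, 4.90, 5.28 and 5.34 at P14, the lowest level of the 12 groups. It read 7.44, 6.94 and 8.25 at P21 and 8.88, 8.92, 8.11 and 7.96 at P28. It read 7.88 and 8.31 at P35 and 11.42 and 9.89 at P56, the highest arrays of this cell type. The rise was 2.74 ± 0.34 from P14 to P35 (adjusted p = 2.26e-06; 5.16% of probe sets called) and 5.30 ± 0.34 from P14 to P56 (adjusted p = 2.25e-13; 16.6% called). Between P14 and P35, 9 of 11 astrocyte and Bergmann glia markers, whose mean went from 7.41 to 9.74, and 4 of 10 Purkinje markers were called higher and 3 of 7 interneuron markers lower, and their part in the rise was not tested.

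The cell type difference of this probe set was 3.74 ± 0.14 averaged over ages (adjusted p = 2.21e-20; 10.3% of the 33759 probe sets called), and 4.38 without P56. The P14 difference of 6.62 ± 0.30 is given with no fold, since the P14 Stellate/Basket arrays lay below the array medians and no detection calls are among the values used. It narrowed to 4.54 ± 0.30 at P21 and 2.9 ± 0.28 at P28, was 3.45 ± 0.34 for P35 and reached 1.19 ± 0.34 at P56 (adjusted p = 0.00609; 18.4% called). The cell types did not overlap at any of these ages. The change from P14 to P35 differed between the cell types by -3.17 ± 0.45 (adjusted p = 8.06e-05; 2.07% called), and that from P14 to P56 by -5.44 ± 0.45 (adjusted p = 2.32e-10; 17.5% called), as the Purkinje level stayed high and the Stellate/Basket level rose. The P56 difference rests on few arrays: it was 0.42 (adjusted p = 0.515) without the third Stellate/Basket replicate, 0.88 (adjusted p = 0.0266) after quantile normalization, and not called with array weights (adjusted p = 0.180) or with the compared groups alone (adjusted p = 0.101). In the order of groups, Purkinje P28 and Stellate/Basket P56 did not differ beyond their spread (0.72; adjusted p = 0.126), while Stellate/Basket P56 stood 2.19 above the next group, Stellate/Basket P28 (adjusted p = 1.45e-05), and Purkinje P3 stood 1.57 above Stellate/Basket P14 (adjusted p = 0.000559). With Xist-high arrays only, averaged over P21 to P56, its call and those of the other members did not change.

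**Figure D4:**
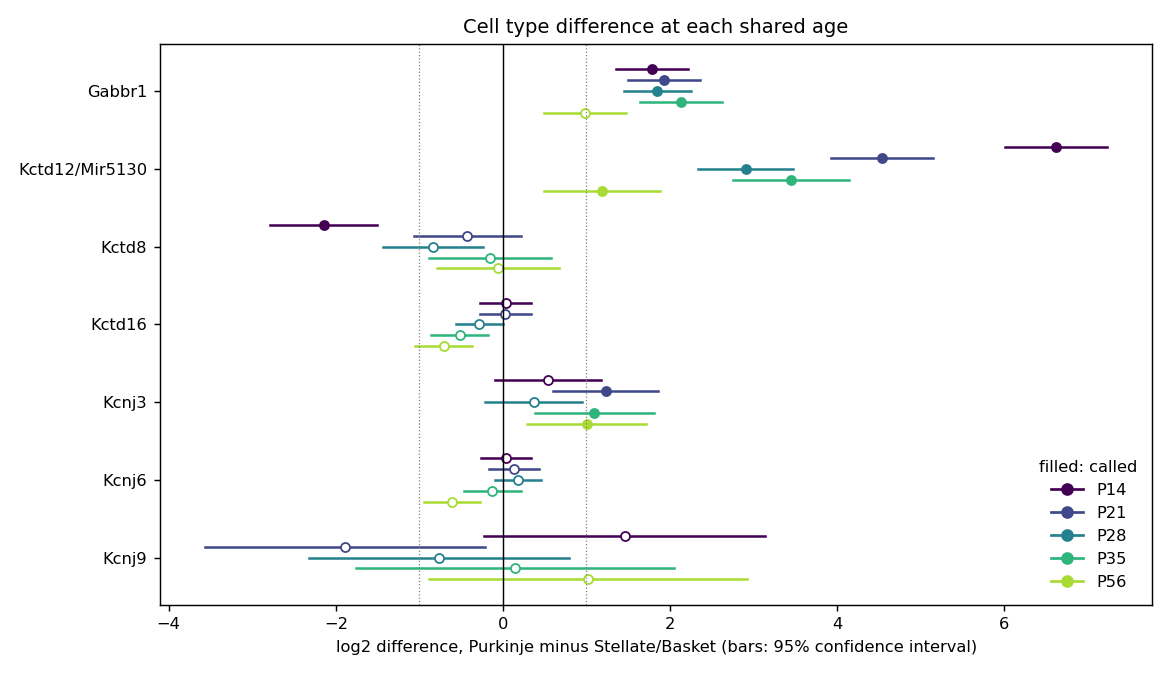
Log2 difference, Purkinje minus Stellate/Basket (horizontal axis), of each measured member at the 5 shared ages, with 95% confidence intervals as bars and called differences as filled points; dotted lines mark a difference of 1. Gabbr1 stays near 2 until P35, the Kctd12/Mir5130 probe set narrows from 6.62 to 1.19, Kctd8 is below 0 at P14, and the Kcnj9 intervals are the widest.

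Kctd8, an auxiliary subunit whose receptors give currents that fade little, had its highest level in young Stellate/Basket arrays. At P14 these read 8.35, 9.32, 8.42 and 8.45 and the Purkinje arrays 6.24, 6.48 and 6.75, with no overlap and a difference of -2.15 ± 0.32 (SE), 4.43-fold higher in Stellate/Basket arrays (adjusted p = 2.62e-06). With the level of Xist as a covariate this was -1.81 (adjusted p = 0.00107). Xist hardly varied within either P14 group, so the covariate takes its slope from other ages. It therefore cannot part Xist from cell type at P14. At P21 the Stellate/Basket arrays read 7.60, 7.38 and 7.10 and the Purkinje arrays 6.93, 7.21, 6.68 and 6.91, and the difference was -0.43 ± 0.32 (95% confidence interval -1.07 to 0.22). The difference was -0.84 at P28, -0.15 at P35 and -0.05 at P56, none called, and averaged over ages it was -0.72 ± 0.15, significant but under the fold minimum (adjusted p = 0.000107), and -0.89 without P56 (adjusted p = 2.18e-05).

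In Purkinje arrays Kctd8 fell by 1.52 on the log2 scale from P7 to P14 (SE 0.34; adjusted p = 0.000931), from 7.17, 8.48 and 8.37 at P7. The P3 arrays read 6.75, 7.46 and 7.65, and the P7 mean of 8.01 was the second highest of the 12 groups, not separated from Stellate/Basket P14 (0.63; adjusted p = 0.382). The interneuron, Golgi and unipolar brush cell markers that were called lower over the P7 to P14 step moved with this fall, and their part was not tested. From P14 to P56 the Purkinje change was 0.21 ± 0.32 (95% confidence interval -0.43 to 0.86).

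In Stellate/Basket arrays Kctd8 fell after P14 and was the member called in each of 3 comparisons. It fell by 1.28 to P21 (SE 0.32; adjusted p = 0.0147; all genes 1.77% called), by 1.14 to P35 (SE 0.36; adjusted p = 0.0338; 5.53%) and by 1.88 to P56 (SE 0.36; adjusted p = 0.000108; 18.7%), when the arrays read 6.47 and 7.04. Over the same spans 7, 9 and 10 of 11 astrocyte and Bergmann glia markers were called higher and 1, 3 and 7 of 7 interneuron markers lower, and their part in the fall was not tested. The second P14 replicate, at 9.32, bears on the smaller of these. Without it the change to P21 was -1.05 (adjusted p = 0.0715) and that to P35 -0.91 (adjusted p = 0.101). The change to P21 was also lost without the third P21 replicate (-1.15; adjusted p = 0.0971), and the change to P35 without either P35 replicate (-1.38, adjusted p = 0.0853, and -0.90, adjusted p = 0.261). The change to P35 also lost its call with quantile normalization (-1.05; adjusted p = 0.0540), array weights (adjusted p = 0.0613), the compared groups alone (adjusted p = 0.0705), Xist as a covariate (-0.99; adjusted p = 0.0782) and the mean of both probe sets (-0.67; adjusted p = 0.0403). That to P56 lost it with array weights (adjusted p = 0.0979). The changes of the cell types differed by 1.99 ± 0.48 from P14 to P35 (adjusted p = 0.0146; 1 of 6 members and 2.64% of all genes called) and by 2.09 ± 0.48 from P14 to P56 (adjusted p = 0.00122; 1 of 6 and 20.1%). The first was lost with Xist as a covariate (1.72; adjusted p = 0.0603) and without the second Stellate/Basket P35 replicate (1.75; adjusted p = 0.0677), the second with array weights (adjusted p = 0.0549). The other Kctd8 probe set (1441495_at) lay between 5.40 and 6.92 in all arrays and had no called difference between groups, with -0.07 ± 0.20 at P14. The F test over the Purkinje ages, which called 54.1% of probe sets with 1 symbol, called it (adjusted p = 0.0230).

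Kctd16, the third auxiliary subunit gene, has 1 probe set (1429666_at), whose group means lay between 6.08 and 6.96. It had no called difference between ages or cell types. The averaged cell type difference was -0.29 ± 0.07 (95% confidence interval -0.43 to -0.15; adjusted p = 0.000726), so that a difference as large as the fold minimum lies outside the interval, and it was -0.18 without P56 (adjusted p = 0.0388). At P56 the Purkinje arrays read 6.02, 6.38, 6.09 and 5.82 and the Stellate/Basket arrays 6.46 and 7.12, a difference of -0.71 ± 0.17, which was -1.04 and called (adjusted p = 6.88e-05) without the first Stellate/Basket replicate and -0.38 (adjusted p = 0.187) without the third. The F test over the Purkinje ages called it (adjusted p = 0.0351, and 0.0309 from P14 on), with the lowest group mean at P56.

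Among the channel genes, Kcnj3, which encodes GIRK1, the subunit that most neuronal GIRK channels share, was called higher in Purkinje arrays at 3 of the 5 shared ages. On the probe set that represents it (1455374_at), the Purkinje arrays read 6.51, 6.19 and 6.47 at P14, 7.04, 6.89, 6.54 and 6.86 at P21 and 7.77, 7.61, 7.35 and 7.59 at P28. They read 6.98, 7.13, 7.43 and 7.22 at P35 and 7.97, 7.81, 7.54 and 7.999 at P56, the highest group mean of the 12 at 7.83. From P14 to P56 Kcnj3 rose by 1.44 ± 0.31 (SE; adjusted p = 0.00204), the 1 member called in a comparison that called 1.69% of all genes. To P35 the change was 0.80 ± 0.31 and not called (adjusted p = 0.258). The P3 arrays read 6.53, 7.16 and 7.09 and the P7 arrays 6.95, 6.98 and 6.39, between the P14 and P56 levels. The levels did not climb evenly, since the P35 mean of 7.19 lay below the P28 mean of 7.58, a difference that was not called.

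The Stellate/Basket arrays of Kcnj3 read 5.87, 5.57, 5.91 and 6.06 at P14, 4.38, 6.48 and 5.95 at P21 and 7.65, 7.75, 6.66 and 6.78 at P28. They read 6.07 and 6.12 at P35 and 7.33 and 6.33 at P56. The arrays of P14 and P35, and those at 4.38 and 5.95 of P21, lay around or below the array medians of 5.91 to 6.16. No detection calls are among the values used. Purkinje arrays lay above the Stellate/Basket arrays without overlap at every shared age but P28, also at P14, where the difference was not called. The difference was 1.23 ± 0.31 at P21, 1.10 ± 0.35 at P35 and 1.003 ± 0.35 at P56, all called, against 0.54 ± 0.31 at P14 and 0.37 ± 0.29 at P28, and 0.85 ± 0.14 when averaged (adjusted p = 8.56e-06), under the fold minimum, as it was without P56 (0.81; adjusted p = 6.27e-05). The P21 difference turns on the first Stellate/Basket replicate, at 4.38, without which it was 0.62 (adjusted p = 0.102). The P35 difference was lost without Purkinje replicate 3 (adjusted p = 0.0539) or without either Stellate/Basket replicate (adjusted p = 0.146 and 0.103). The P56 difference was 0.50 (adjusted p = 0.466) without the third Stellate/Basket replicate and under the fold minimum without Purkinje replicate 1 (0.96) or 4 (0.95). The step from P21 to P28 in Stellate/Basket arrays, 1.61 ± 0.31 (adjusted p = 0.00278; 1 member and 1.01% of all genes called), was 0.996 (adjusted p = 0.0566) without the array at 4.38. In the order of the 12 groups no neighbours were separated (adjusted p of at least 0.306). That order places groups with close means side by side, and groups further apart, such as Purkinje P14 and P56, did differ. The other 3 Kcnj3 probe sets spanned 4.40 to 6.36 over all arrays, and the tested ones had no called difference between groups. Of these, the F test over the Purkinje ages called 1444336_at (adjusted p = 0.0227). Probe set 1444025_at did not pass the filter.

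Kcnj6, which encodes GIRK2, the subunit that brings neuronal channels to the membrane, showed no called difference between groups on any of its 5 probe sets. On the one that represents it (1421581_at), Purkinje arrays from P14 on lay between 5.59 and 6.42 with a median of 5.94, and Stellate/Basket arrays between 5.68 and 6.68 with a median of 5.96. The averaged cell type difference was -0.08 ± 0.07 (95% confidence interval -0.22 to 0.06), or 0.06 without P56 (adjusted p = 0.544), and the Purkinje change from P3 to P56 was -0.20 ± 0.15 (95% confidence interval -0.50 to 0.10). At P56 the difference was -0.61 ± 0.17 (adjusted p = 0.00371), under the fold minimum, with Stellate/Basket arrays at 5.97 and 6.68 and Purkinje arrays at 5.79, 5.85, 5.64 and 5.59. It was -0.97 (adjusted p = 0.000114) without the first Stellate/Basket replicate and -0.25 (adjusted p = 0.394) without the third. On other probe sets the F tests called Kcnj6: 1425044_at over the Purkinje ages (adjusted p = 0.0212), over those from P14 on (adjusted p = 0.0258; 28.7% of probe sets called) and over the Stellate/Basket ages (adjusted p = 0.0303; 37.6% called), and 1425707_a_at over both sets of Purkinje ages (adjusted p = 0.0131 and 0.0399). The 5 probe sets spanned 4.57 to 6.68 over all arrays, around and below the array medians, and no detection calls are among the values used.

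Kcnj9, which encodes GIRK3, a subunit that lowers channel traffic to the surface, had the widest spread between replicates of the 6 members. On the probe set that represents it (1450712_at), its SD within groups was 1.13, the 99.9th percentile of the 17478 genes, whose median was 0.249. The Purkinje arrays read 5.51, 5.91 and 5.36 at P3, 5.58, 8.09 and 7.40 at P7 and 8.48, 8.03 and 8.67 at P14. They read 6.26, 7.39, 6.04 and 7.09 at P21 and 9.94, 8.26, 9.51 and 9.30 at P28. They read 7.17, 6.90, 9.76 and 9.49 at P35 and 9.77, 9.60, 7.28 and 8.99 at P56. The P21 arrays thus lay below those of P14 and P28, and the P35 arrays split into a low and a high pair. The P3 arrays lay at or below the array medians of 5.91 to 6.16, with no detection calls among the values used. The rise from P3 to P56 was 3.32 ± 0.82 (SE; adjusted p = 0.00186), and it was called also with P35 as the last age (2.74; adjusted p = 0.0107).

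From P14 to P56 the Kcnj9 change in Purkinje arrays was 0.52 ± 0.82 (95% confidence interval -1.16 to 2.20). The Stellate/Basket arrays read 6.55, 6.45, 8.76 and 5.99 at P14, 7.14, 9.32 and 9.28 at P21 and 10.13, 9.75, 10.08 and 10.08 at P28. They read 6.14 and 10.25 at P35 and 9.03 and 6.77 at P56. The cell types overlapped at all 5 ages, and the averaged difference was -0.01 ± 0.38 (95% confidence interval -0.79 to 0.77). This average joins differences of opposite sign. Purkinje arrays were higher by 1.46 for P14 (interval -0.22 to 3.14), while the P21 difference was -1.89 (interval -3.57 to -0.21). The P28 difference was -0.76, that of P35 0.14 and that of P56 1.01, and none of the 5 was called. Each of these 5 intervals ran past the fold minimum on at least 1 side, so such a difference within an age is not excluded. Without P56 the average was -0.26 (adjusted p = 0.614), with no interval given. The F tests called Kcnj9 over the Purkinje ages (adjusted p = 0.0025) and over the Stellate/Basket ages (adjusted p = 0.0231), where P28 was highest. At P35, an age singled out after its values were seen, the 3 arrays with low Xist read 9.76, 9.49 and 10.25, and the 3 with high Xist 7.17, 6.90 and 6.14. At other ages arrays with high Xist also reached 10.13, and what part of the spread goes with Xist was not tested. The mean of the 4 Kcnj9 probe sets differed by 0.95 ± 0.21 from P3 to P56, under the fold minimum. Of the other 3 probe sets, 1428602_at differed by 0.92 ± 0.19 from P3 to P56 (adjusted p = 0.000213), and none had a called difference between groups. The F test over the Purkinje ages called all 3 (adjusted p = 2.91e-05 for 1428602_at, 0.00679 for 1426115_a_at and 0.0455 for 1433029_at), and that from P14 on the last pair (adjusted p = 0.0168 and 0.0373).

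Genes of the signalling path around the receptor were taken as 8 lists, given here by how many of those tested were called in the averaged cell type difference and in Purkinje P3 to P56, beside medians of 0.02 and -0.04 over all genes. Of all genes, 6.37% were called higher and 5.13% lower in the first comparison and 8.71% and 7.81% in the second. Without P56 the 8 lists held 20 called genes of 74 between the cell types, as with it, 17 of them called in both, while 12.2% of all genes were called. From P14 to P56, without the P3 arrays, limma called none of the 74, against 27 from P3 and 1.69% of all genes. In the same limma test 15 of the 74 had an unadjusted p under 0.05. The share of all genes under that unadjusted p is not given, so the 15 cannot be set against a background. Among 5 Gi/o alpha subunit genes (list medians 0.59 and 0.30), Gnao1, the main Go alpha subunit of neurons, exceeded its Stellate/Basket level by 2.58 ± 0.16 (SE) and rose from P3 to P56 by 1.58 ± 0.34, while Gnai2 was lower between the cell types (-1.03 ± 0.13), though not called without P56 (-0.76; adjusted p = 5.69e-05). Gnai3 and Gnaz fell from P3 to P56 by 1.49 and 1.26. Of 12 beta and gamma subunit genes, which supply the part that opens GIRK channels, 2 were higher and 3 lower in each comparison (list medians -0.08 and -0.42). Gng13 rose from P3 to P56 by 7.68 ± 0.39, from a mean of 5.23 to 12.92, and was higher in Purkinje arrays by 2.22 ± 0.18. Gng4 was higher by 2.60 ± 0.32 and rose by 2.87 ± 0.69, and Gnb2 was lower (-2.84 ± 0.12) and fell by 3.49. Purkinje arrays thus differed from Stellate/Basket arrays in both directions within the G protein genes.

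Of 11 RGS genes and partners, which end Gi/o signals, 2 were higher and 1 lower in each comparison (list medians 0.08 and 0.27). Rgs8 was higher by 1.78 ± 0.09 and rose by 3.71 ± 0.19, Rgs4 was higher by 1.51 ± 0.19 and rose by 1.65 ± 0.41, and Rgs17 was lower (-2.43 ± 0.10) and fell by 4.07. Of 12 genes of receptor and channel trafficking and phosphorylation, 2 were higher and 1 lower between the cell types and 3 and 2 from P3 to P56 (list medians 0.32 and 0.43). Camk2b, a subunit of the kinase CaMKII, was higher by 1.67 ± 0.16 and Camk2a by 1.04 ± 0.13 (1.70 without P56), and Nedd4l, a ubiquitin ligase, was lower (-1.40 ± 0.12). From P3 to P56, Nedd4l fell by 3.14, and the phosphatase subunit gene Ppp2cb and Camk2a rose by 1.32 ± 0.36 and 1.13 ± 0.27. None of the 3 genes of proteins that bind the receptor's sushi domains was called in either comparison (list medians 0.38 and 0.37).

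Of 8 other Kir channel and Kctd genes (list medians 0.02 and -0.08), Kctd1 was higher by 1.25 ± 0.08 and rose by 1.54 ± 0.17, and Kctd15 fell by 2.04. Of 10 calcium channel and adenylyl cyclase genes that Gi/o proteins act on, none was higher in either comparison, 4 were lower between the cell types and 5 fell from P3 to P56 (list medians -0.89 and -1.10). Lower were the R-type channel gene Cacna1e (-2.79 ± 0.12), the cyclase gene Adcy6 (-1.60 ± 0.10) and the N-type channel gene Cacna1b (-1.40 ± 0.08), and Adcy2, Cacna1b and Cacna1e fell by 2.99, 2.56 and 2.29. Of 13 other Gi/o-coupled receptor genes, 1 was higher and 1 lower between the cell types and 1 rose and 3 fell from P3 to P56 (list medians -0.09 and -0.03). These were the metabotropic glutamate receptor gene Grm7 (3.40 ± 0.14 and 1.87 ± 0.30) and the cannabinoid receptor gene Cnr1 (-5.76 ± 0.20 and -5.22 ± 0.44), with Grm2, also a Golgi cell marker, falling by 1.88. The P3 arrays enter all of these P3 to P56 values with the marker levels given above, and the part of those levels was not tested.

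Finally, the genes most like each member were found by Pearson's r over the 12 group means, among genes whose means span at least 1 log2 unit. For Gabbr1 these were the calcium store protein gene Casq2, Septin11 and the ryanodine receptor gene Ryr1 (r = 0.994, 0.994 and 0.992). Casq2 is also on the list of Purkinje markers used above. For the Kctd12/Mir5130 probe set they were Tmem255a, Coro2b and Nrk (0.988, 0.984 and 0.982), and for Kctd8 Nfkbie, Zfp949 and Ccdc84 (0.944, 0.902 and 0.895). Likeness was lower for Kcnj3, with Ubxn2a, C330018D20Rik and Zswim5 (0.871, 0.857 and 0.851), and for Kcnj9, with Tmprss2, Asah1 and Efr3a (0.847, 0.835 and 0.812). Kctd16 and Kcnj6 spanned 0.88 and 0.61 and were not searched. The 12 means share the marker levels of their arrays, and these values are a description.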

How the data were processed

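Expression was measured on Affymetrix MOE430.2 arrays, from polyadenylated RNA of hand-sorted cells amplified in 2 rounds, per the labels' protocols. The authors deposited normalized log2 values per probe set. R 2.9.1 and GCRMA are named in the submitters' processing notes, with no role or order. Of the 42 deposited columns, 2 equal the mean of the other columns of their group within 1e-08 (in Stellate/Basket cells, replicate 3 of P35 and replicate 2 of P56) and were left out, and 40 arrays were used. Probe sets were named by the array annotation, where 34958 carry 1 gene symbol, 932 several and 9211 none. Each gene took the values of its brightest probe set on average, and the filter required log2 values above 5 on 3 or more arrays, which 17478 genes passed. Differences (Purkinje minus Stellate/Basket, or later minus earlier age) were fitted in R 4.3.3 by limma 3.58.1, using 1 mean for each of the 12 groups and Benjamini-Hochberg adjustment over all genes within a comparison. The spread of the pairs of Stellate/Basket arrays at P35 and P56 is thus assumed to match the other groups, and array number limits precision. The members, gene lists and tests were chosen with earlier results of these data known. Named were all members with every probe set, up to 3 called genes with the largest difference of each path list in 2 comparisons, and the 3 genes most like each member. Alternatives covered the filter, the summary of probe sets, normalization, variance model, array weights, a replicate block, the arrays in the fit, Xist, thresholds, the last age, and leaving out each array. The estimate of the array weights on the 40 arrays stopped before its convergence tolerance, and the weights it returned were used. The fit of probe sets with several symbols, that with Xist-high arrays only, and the list values without P56 or P3 were chosen after seeing the data. For values without P56, the comparison left out P56 of both cell types, while all 40 arrays stayed in the fit. The scripts were tested on simulated data. Promoter windows are from RefSeq, and the plots were made in matplotlib 3.10.9 under Python 3.11.15.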

Additional observations from a re-analysis of the deposited data

Results flagged for a closer look

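Of 42 groups of 4 arrays examined over the 7 measured members, 4 held an array far from the other 3, and chance alone flags about 1 in 20 such groups. Gabbr1 read 13.26 in Purkinje P56 replicate 4, against 13.06 to 13.08 in the other 3 arrays. Kcnj9 read 9.75 in Stellate/Basket P28 replicate 2, against 10.08 to 10.13. Kctd8 read 6.07 in Purkinje P56 replicate 3, against 6.86 to 6.96, and 9.32 in Stellate/Basket P14 replicate 2, against 8.35 to 8.45.

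The age change was called as different between the cell types for 2 members. For Kctd8 the difference was 2.09 from P14 to P56 (adjusted p = 0.00122; 20.1% of all genes called) and 1.99 from P14 to P35 (adjusted p = 0.0146; 2.64%). For the Kctd12/Mir5130 probe set it was -5.44 (adjusted p = 2.32e-10; 17.5% of probe sets called) and -3.17 (adjusted p = 8.06e-05; 2.07%). Xist was low in the Purkinje and high in the Stellate/Basket P14 arrays that all 4 of these share. Its part was not tested beyond the covariate, which cannot part Xist from cell type at P14. With that covariate the Kctd8 difference to P35 lost its call. Gabbr1, Kcnj6 and Kctd16 also had an adjusted p under 0.05 for the change to P56, but stayed under the fold minimum.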

How the results depend on the processing

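No called difference of a member changed sign under any alternative. For each gene these used the brightest probe set or the mean of all, and none put another single probe set in its place. The choice of probe set matters for Gabbr1, where probe set 1437188_at had called differences of the opposite sign, as given above. Over 184 single differences, alternatives other than leaving out an array gave 2452 values on the same side of the thresholds, 49 that lost a call and 31 that gained it, and leaving out each array gave 1518, 18 and 16. Averaging the probe sets of a gene lowered the number of members called to 1 at P14 and to 0 in the averaged cell type difference, at P21, P28, P35 and P56, in Purkinje P3 to P56, P7 to P14 and P14 to P56, in Stellate/Basket P14 to P21, P14 to P35, P21 to P28 and P35 to P56, and in the difference of changes to P35, and to 2 in the Stellate/Basket F test. Quantile normalization gave 0 at P56, 2 in Stellate/Basket P14 to P56, 0 in P14 to P35 and 1 in the Purkinje F test from P14, and median centring 2 at P56 and 1 in that F test. Array weights gave 1 at P35, 0 at P56, 1 in Purkinje P14 to P35 and P21 to P28, 0 in Stellate/Basket P14 to P35, P14 to P56 and P35 to P56 and in the difference of changes to P56, and 5 in the Purkinje F test from P14. The compared groups alone gave 0 at P56 and in Stellate/Basket P14 to P35, P21 to P28 and P35 to P56, and 1 in the Stellate/Basket F test. All 42 columns gave 1 in Purkinje P21 to P28 and in Stellate/Basket P28 to P35. Xist as a covariate gave 0 in Stellate/Basket P14 to P35 and in the difference of changes to P35, and P35 as the last age gave 0 in Purkinje P14 to P56. With no minimum difference the counts were 4 averaged, 2 at P28, 4 at P56, 2 in Purkinje P14 to P56, 1 in P35 to P56, 3 in Stellate/Basket P14 to P56 and 4 in the difference of changes to P56. At an adjusted p under 0.01 they were 1 at P35, 0 at P56 and in Stellate/Basket P14 to P21 and P14 to P35, 0 in the difference of changes to P35, and 1 in the Purkinje F test from P14. Except for these thresholds, the cause of each change was not tested. The share of all genes called was not counted under the alternatives or without each array. The member counts of this section therefore cannot be set against the shares of the main fit.

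Leaving out each array in turn gave from 1 to 2 members called at P28 and at P35, 0 to 3 at P56, 0 to 1 in Purkinje P21 to P28, 1 to 2 in the Purkinje F test from P14, 0 to 1 in Stellate/Basket P14 to P21, P14 to P35, P21 to P28, P28 to P35 and P35 to P56, 1 to 3 in P14 to P56, 0 to 1 in the difference of changes to P35 and 1 to 3 in that to P56.

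Over pairs of arrays from any 2 groups, those with the same replicate number were not more alike. Deviations from group means correlated at a mean r of -0.01 over 191 same-numbered pairs and 0.00 over 539 others. Of the 191, 37 were over 0.1, and of the 539, 99 were. Most of these pairs join different ages. A pairing of the 2 cell types within an age was not tested by itself. With the replicate block, 2 members were called in Stellate/Basket P14 to P56, where Kcnj3 gained a call (1.04), Gabbr1 gained one at P56 (1.001) and Kcnj3 lost its own there (0.94); it changed no other call.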
